A study of Mus musculus with 6 samples.

Results

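Doublecortin (Dcx) and 9 further genes of the cytoskeleton of young neurons, namely Tubb3, Tubb2b, Stmn1, Stmn2, Stmn4, Dpysl3, Map1b, Crmp1 and Gap43, were followed through the cell types of the mouse olfactory bulb. The 10 genes were chosen by name, with earlier results of these data known, and all 10 are among the 18560 genes of the count table. Single cells of dissociated bulbs of C57BL/6NJ mice were profiled in 6 libraries, 2 each from control mice without manipulation, mice with naris occlusion (an odor deprivation in which a nostril is closed) and mice trained in an odor discrimination task. Per the study's methods, mice of both sexes aged 14 weeks were used and the manipulations lasted 6 weeks. Animals were pooled for a library, so a library is the unit of replication, and the deposited cells include some from the adjacent olfactory epithelium. The labels describe the control mice as not manipulated and the results text of the study calls them naive, but the same text also names the open side of occluded mice as the control for occlusion.

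The adult olfactory bulb receives new neurons throughout life. They migrate in from the subventricular zone as neuroblasts and become granule cells (GC) and periglomerular cells (PGC), the inhibitory interneurons of the bulb. A migrating neuron rebuilds its microtubules and growth cone constantly: Dcx and Map1b bind and stabilize microtubules, Tubb3 and Tubb2b are β-tubulins, stathmins (Stmn1, Stmn2 and Stmn4) bind tubulin dimers and destabilize microtubules, Crmp1 and Dpysl3 are collapsin response mediator proteins that act in growth cones, and Gap43 is a membrane protein of growing axons.

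The promoters of 4 of the 10 genes were matched in the RefSeq table of assembly GRCm38.p6 (mm10), and the bases just before the outermost annotated start of each gene are shown for these 4 because all of them were lower on both routes out of n04 described below. They read 5′ to 3′ on the strand of the gene, and capitals mark TATAA and GGGCGG on either strand. Dcx is on the minus strand of chrX:143933397-143933469, Tubb3 on the plus strand of chr8:123411433-123411552, Map1b on the minus strand of chr13:99516603-99516722 and Crmp1 on the plus strand of chr5:37241938-37242057.
Dcx: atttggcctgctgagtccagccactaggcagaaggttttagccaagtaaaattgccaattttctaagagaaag
Tubb3: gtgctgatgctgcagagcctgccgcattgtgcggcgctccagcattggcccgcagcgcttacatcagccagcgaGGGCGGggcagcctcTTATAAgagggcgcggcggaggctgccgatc
Map1b: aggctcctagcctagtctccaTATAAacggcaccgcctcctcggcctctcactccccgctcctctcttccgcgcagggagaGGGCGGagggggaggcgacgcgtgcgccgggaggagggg
Crmp1: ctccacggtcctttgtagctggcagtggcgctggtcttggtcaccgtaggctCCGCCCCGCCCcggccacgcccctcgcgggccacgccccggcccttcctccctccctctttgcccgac

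TATAA began at −31 (on the opposite strand) and at −30, overlapping each other, in Tubb3 and at −99 in Map1b, counted from the start with −1 as the base before it. The stretches of Tubb3 and Map1b also hold GGGCGG, and that of Crmp1 holds 2 matches of it on the opposite strand that overlap each other. No TATAA match overlaps a GGGCGG match in these stretches. Over the whole 250 bases before the start of the matched promoter, TATAA was in Dcx, Tubb3 and Map1b and GGGCGG in Tubb3, Map1b and Crmp1. CAGCTG was in none of the 4 genes. In Dcx the start of the matched promoter lies downstream of the outermost start. Only 73 of the 250 bases come before the outermost start there, and TATAA was not within these. Among 32851 promoter windows of the same 250 bases, 22.8% held TATAA, 32.7% held GGGCGG and 13.0% held CAGCTG on either strand. A match is a description of the letters and not evidence of binding.

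The libraries held between 6705 and 10570 annotated cells and between 11841160 and 17065083 UMIs (unique molecular identifiers, which mark single transcript molecules), and the median UMI count per cell ranged from 1028 in trained replicate 1 to 1724 in naris-occluded replicate 1. Of 51426 annotated cells, 21746 were neurons in 18 clusters, of which 12 are the adult-born clusters of the study. Of 49931 barcode sequences, 1461 occurred in more than 1 library. The cluster n04-Immature held 3910 cells, and Sox11, Sox4, Cd24a, Igfbpl1 and Dlx2 all had their highest mean of the 18 neuronal clusters there. The study judged n04 to be immature from its enriched genes, Sox11 among them, and described Dcx as enriched there too. The levels of Sox11 and Dcx in n04 are thus not independent of its name. The defining genes of mature neurons were low in n04, as Syt1 was at 132 ± 21.8 CPM (UMIs per 1000000 UMIs of the cluster; mean ± SD, n = 6 libraries) against 2474 ± 209.7 in n17-M/TC-3. UMIs were summed over the cells of a cluster in a library, and comparisons between clusters are descriptions without a test.

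Of the 10 genes, 7 were higher in n04-Immature than in each of the other 17 neuronal clusters in all 6 libraries. Dcx, Tubb3, Tubb2b, Stmn1, Stmn2, Dpysl3 and Map1b were these 7. The share of all genes with such a pattern was not formed, so the count does not show whether the 10 genes stand out. The level of Crmp1 was also highest in n04 on average, and Stmn4 and Gap43 had higher means in clusters of mature neurons.

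Dcx, the microtubule-binding protein that marks neuroblasts, was at 898 and 845 CPM in the n04 cells of the control libraries, 971 and 844 CPM in those of occluded mice and 944 and 939 CPM in those of trained mice. The libraries of the 3 conditions lay close together, with a mean of 907 ± 53.5 CPM. The next level of Dcx was in n06-Transition, at 445 ± 74.6 CPM, and it differed from that in n05-PGC-2 (374 ± 49.2 CPM) by less than the spread of their difference. In n07-GC-2 and n11-GC-5 Dcx was at 324 ± 66.4 and 322 ± 62.5 CPM, which did not differ beyond their spread either. The lowest mean was in the olfactory sensory neurons (n01-OSNs), at 52.0 ± 23.0 CPM. It differed from that in n17-M/TC-3 by 1.53 ± 35.6 CPM, which is within the spread. The totals behind CPM include mitochondrial UMIs, whose median share was 39.0% in n01-OSNs and 16.4% in n17-M/TC-3, against 8.44% in n04.

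The β-tubulins, the building blocks of microtubules, also peaked in n04. Tubb3 was at 1777 ± 161 CPM in n04. In the next clusters it was at 499 ± 99.2 CPM (n17-M/TC-3) and 495 ± 106 CPM (n11-GC-5), which did not differ beyond their spread. Tubb2b was at 1703 ± 220 CPM in n04, and at 230 ± 84.3 CPM in n10-GC-4, the next cluster.

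Stmn1 had the most UMIs of the 10 in n04, between 3841 and 4187 CPM in the 6 libraries. Its next levels were 1248 ± 261 CPM (n17-M/TC-3) and 1227 ± 535 CPM (n16-M/TC-2, a cluster of 116 cells in all). Stmn2, which occurs in growth cones, was at 1583 ± 107 CPM in n04 and 521 ± 131 CPM in n18-EPL-IN. Stmn4 had another distribution. It was at 554 ± 32.8 CPM in n04, below 693 ± 121 CPM (n17-M/TC-3) and 654 ± 97.9 CPM (n08-PGC-3), and neighbours in this order did not differ beyond their spread.

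Map1b, at 1100 ± 65.3 CPM in n04, was next highest in 2 of the 3 clusters of mitral and tufted cells (M/TC), the output neurons of the bulb, with 734 ± 163 CPM (n17) and 697 ± 220 CPM (n16), and in n09-GC-3 with 673 ± 70.3 CPM. The other mitral and tufted cluster, n15-M/TC-1, was at 361 ± 199 CPM. Crmp1 was at 320 ± 13.0 CPM in n04 and 199.8 ± 26.4 CPM in n09-GC-3. It was not the highest in n04 in every library, since the few cells of n16-M/TC-2 reached 409 CPM in 1 library. Dpysl3 had its highest level in n04, with 303 ± 34.2 CPM there against 75.2 ± 58.4 CPM in n15-M/TC-1, a cluster of 90 cells, and 71.5 ± 42.7 CPM in n05-PGC-2.

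Gap43 was higher in a cluster of mature neurons than in n04. In n05-PGC-2 it was at 278 and 326 CPM in control, 213 and 483 CPM in occluded and 302 and 229 CPM in trained libraries, and in n04 at 184 and 160, 177 and 156, and 123 and 154 CPM in the same order. Every library was higher in n05 than in n04, at 197 ± 71.5% of the level in n04. The level in n17-M/TC-3 was 305 ± 88.4 CPM and did not differ from that in n05 beyond their spread.

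**Figure D1:**
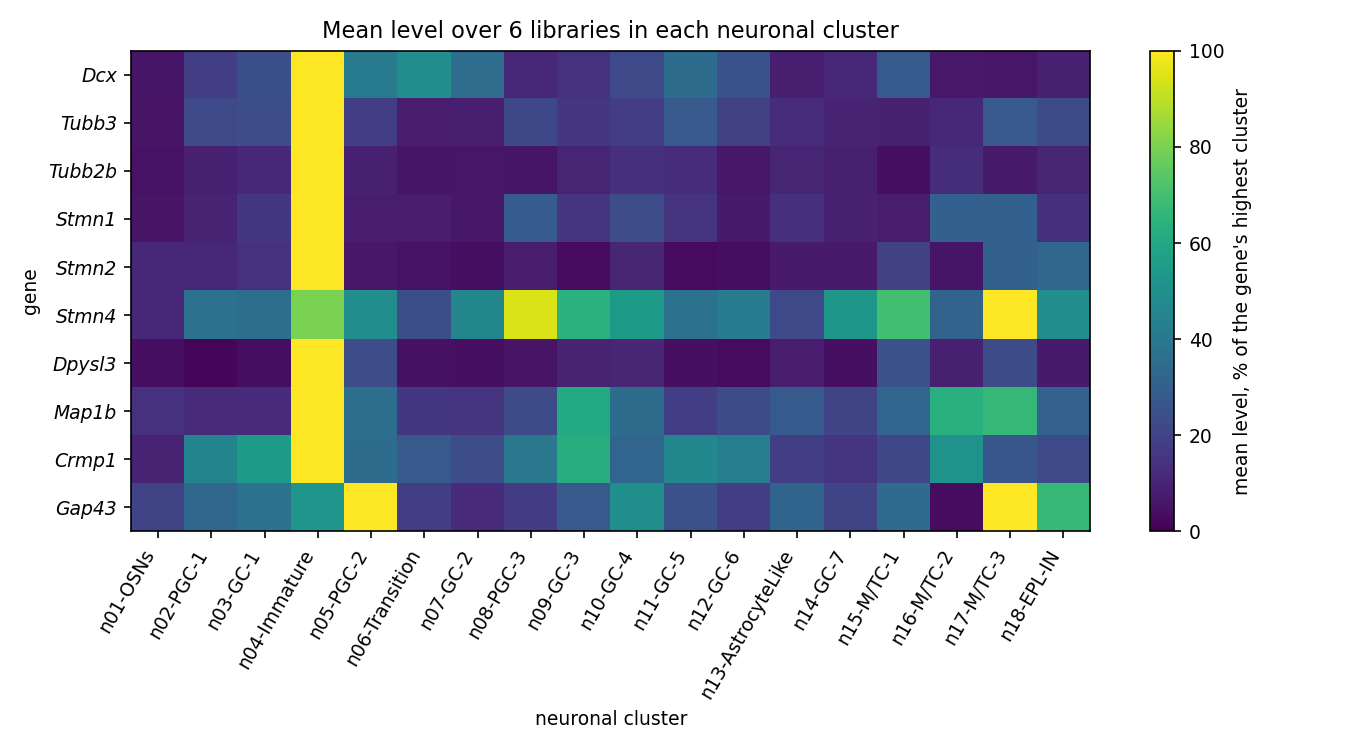
Mean level of each of the 10 genes (rows) in the 18 neuronal clusters (columns) over 6 libraries, as a percent of the cluster where that gene was highest (colour scale). The n04-Immature column is at 100% for 8 genes, while Stmn4 and Gap43 peak in n17-M/TC-3, and Gap43 is as high in n05-PGC-2.

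Cells differ in depth, so each was also thinned to 500 UMIs, which left out none. A Dcx UMI was then found in 34.9% of n04 cells (69.2% before thinning; 33.8 to 36.2% over the libraries when thinned), 18.8% of n06, 14.2% of n07, 12.2% of n05 and 9.72% of n03-GC-1 cells. The share was 2.58% in n01-OSNs and 0.524% in the ensheathing glia cluster OEC4, which were taken to lack Dcx without a test of this. Their median depth was 808.5 and 2117 UMIs, against 1668 in n04, 730 in n06 and 882 in n07. The median mitochondrial share of UMIs was 39.0% in n01-OSNs and 8.44% in n04. The 500 UMIs include mitochondrial ones, so fewer other UMIs were left in n01-OSNs cells. At the same 500 UMIs, Stmn1 was found in 80.7% of n04 cells and in 10.0 to 33.7% of the cells of the other 17 neuronal clusters, lowest in n15-M/TC-1 and highest in n08-PGC-3, with 13.6% in n06 and 11.7% in n07. It was found in 10.3% of n01-OSNs and 35.9% of OEC4 cells.

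Counted per cell, an n04 cell at 500 UMIs had UMIs of 3.75 ± 0.155 of the 10 genes (mean ± SD over libraries), and 31.3% of n04 cells had 5 or more. The other 17 neuronal clusters had between 0.493 and 1.35 of the 10 genes per cell, and at most 1.08% of their cells had 5 or more. No UMI of any of the 10 was found in 0.870% of n04 cells.

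The cells of n04 fall into several clusters of the annotation of the whole bulb, and the 10 genes were not at equal levels in them. N1 held 3283 of the n04 cells, N3 held 448 and N4 held 119. Whole-bulb names are those of the deposited annotation, where N1, N3 and N4 have 3311, 473 and 141 cells in all. The study's published table of cell counts gives these totals to neuronal clusters of other numbers. The same holds for OEC4 (3436 cells) and Astro2 (336 cells), so these names do not match that table. The genes of dividing cells were highest in N3, with Top2a at 181 ± 144 CPM against 13.5 ± 11.1 CPM in N1 and Mki67 at 106 ± 69.05 against 12.7 ± 4.90 CPM, although these rest on 96 and 54 UMIs in N3 and Top2a was at 0 in 1 library. N4 cells held more Syt1, a synaptic vesicle gene, at 438 ± 230 CPM against 121 ± 18.5 CPM in N1. Sox11 was lower than in N1 in 6 of 6 libraries in both, at 54.9 ± 8.62% in N3 and 40.3 ± 11.6% in N4. Among the 18 neuronal clusters, Top2a had its highest mean in n04, but Mki67 in n07-GC-2, at 76.0 ± 6.20 CPM. These annotations come from the same cells and genes, so the differences are descriptions. The median depth was 775 UMIs in N3, 1736 in N1 and 2660 in N4, and the part of depth in the differences was not tested.

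In N3, Dcx was at 277 and 198 CPM in the control libraries, 286 and 465 CPM in the occluded and 385 and 179 CPM in the trained libraries. All 6 libraries were lower than in N1, and the level was 31.3 ± 13.3% of that in N1, the lowest share of the 10 genes. Stmn1 was at 89.3 ± 13.6% of N1 in N3 and was lower in 5 of 6 libraries. Map1b was at 43.5 ± 14.4%, Stmn4 at 49.5 ± 11.99%, and the tubulins Tubb3 and Tubb2b at 64.6 ± 14.9% and 66.4 ± 13.3%, each lower in 6 of 6 libraries.

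The order was another in N4. Dcx was at 97.7 ± 19.4% of N1, lower in 5 of 6 libraries and higher in naris-occluded replicate 2, and Stmn4 at 93.7 ± 17.5%, lower in 3 of 6, both within the spread between libraries, whereas Map1b was at 56.4 ± 9.22%, Stmn2 at 61.1 ± 7.78% and Stmn1 at 66.2 ± 8.62%, lower in 6 of 6 libraries. The smallest library had 9 cells in N4. Dpysl3 and Gap43 varied too much between libraries in both N3 and N4 to be placed.

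**Figure D2:**
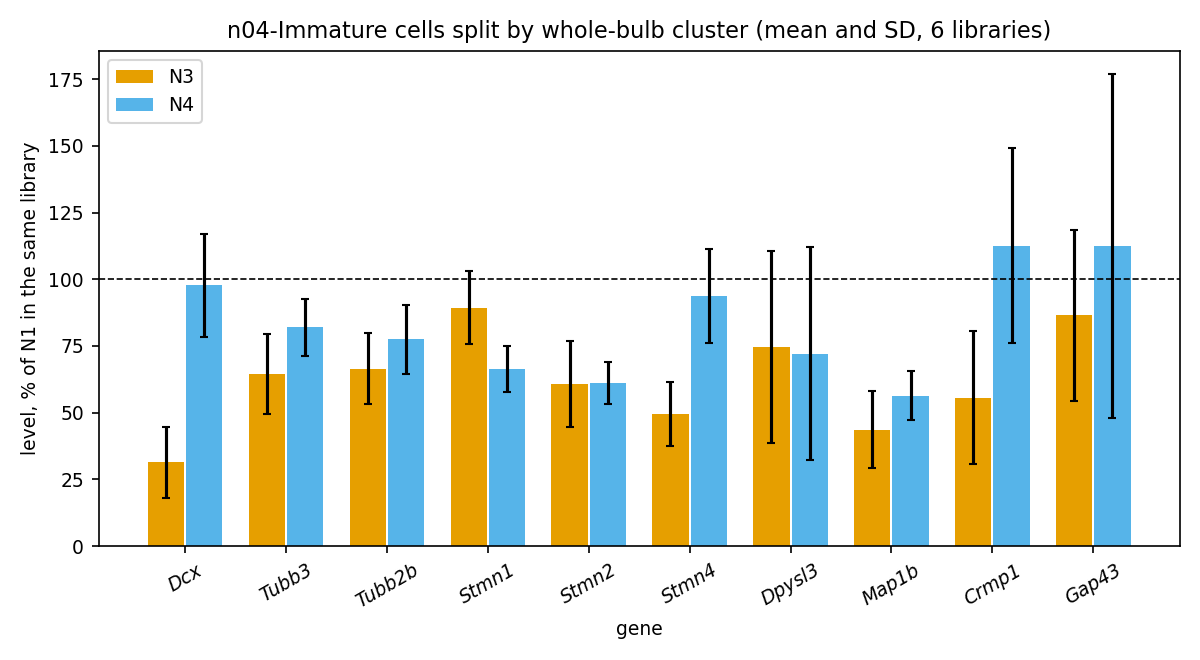
Level of each gene in the n04-Immature cells that the whole-bulb annotation calls N3 or N4, as a percent of N1 in the same library (bars, mean; error bars, SD of 6 libraries; dashed line, N1). Dcx is at 31.3% in N3 and 97.7% in N4, while Stmn1 is at 89.3% in N3 and 66.2% in N4.

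The study describes 2 routes from n04 to mature interneurons, here axis A with 8 clusters (n02, n03, n05, n08, n10, n11, n12 and n14) and axis B with 3 (n06, n07 and n09), and the ratio of each axis to n04 was formed in each library. The ratio is on the log2 scale after adding 1 CPM. All 10 genes were lower than n04 in 6 of 6 libraries on both axes. Of the 7021 genes with 50 CPM or more in a neuronal cluster, 22.7% were lower in 6 of 6 libraries on axis A and 30.1% on axis B. The median log2 ratio of the 10 genes was −2.27 on axis A and −2.96 on axis B, against 0.22 and 0.28 for the 7021 genes.

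On axis A the genes fell in the order Dpysl3, Stmn2, Tubb2b, Stmn1, Map1b, Tubb3, Dcx, Crmp1, Stmn4 and Gap43. The first fell by 4.13 ± 0.48 on the log2 scale, to 5.67 ± 1.94% of its n04 level, and the last fell by 0.56 ± 0.21, to 68.4 ± 10.2%. Dcx, with a log2 ratio of −1.88 ± 0.24, was at 27.4 ± 4.51% of its n04 level. The steps between Dpysl3 and Stmn2, between Map1b and Tubb3, and between Tubb3 and Dcx were no larger than the spread of the difference between libraries, and the other neighbours kept their order in 6 of 6 libraries.

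On axis B the order was Stmn2, Dpysl3, Tubb2b, Stmn1, Tubb3, Map1b, Crmp1, Gap43, Dcx and Stmn4, from −4.60 ± 0.26 for Stmn2 to −0.99 ± 0.32 for Stmn4. The step from Tubb3 (−3.53 ± 0.39) to Map1b (−2.39 ± 0.15) was the largest, and it held in 6 of 6 libraries. Of the 9 steps, 6 were within the spread of the difference between libraries, namely the 4 among the first 5 genes and those from Crmp1 to Gap43 and from Gap43 to Dcx. The first 5 genes were at 4.12 to 8.88% of their n04 level and the last 5 at 19.1 to 51.4%. Dcx stood at 38.1 ± 7.32%.

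The axes differed in opposite directions for Dcx and for the tubulins. The study judged n06 of axis B to be likely immature from its enriched genes, Dcx among them. The Dcx level of n06 is thus not independent of that naming. Dcx was at 343 ± 53.0 CPM on axis B and 248 ± 38.1 CPM on axis A, a log2 difference of 0.47 ± 0.15, higher on axis B in 6 of 6 libraries. Tubb3 was at 156 ± 37.0 CPM on axis B and 411 ± 87.4 CPM on axis A, a log2 difference of −1.40 ± 0.15, lower on axis B in 6 of 6 libraries. Gap43 (−1.15 ± 0.27), Stmn2 (−0.98 ± 0.25), Stmn1 (−0.89 ± 0.29), Tubb2b (−0.74 ± 0.22) and Crmp1 (−0.70 ± 0.18) were also lower on axis B in every library. The differences of Stmn4, Map1b and Dpysl3 were within the spread between libraries. Of the 10 genes, 1 was thus higher and 6 were lower on axis B in 6 of 6 libraries, where 32.1% of the 7021 genes were higher and 34.5% lower. With each cluster given equal weight, the log2 ratio of Map1b to n04 was −2.14 on axis A and −1.69 on axis B, and that of Crmp1 was −1.35 and −1.39, so that these differences depended on the weighting, while Dcx stood at −2.08 and −1.60 and Tubb3 at −2.33 and −3.24. The clusters of an axis did not all share this contrast. Axis B is dominated by n06 and n07, whose median depth of 730 and 882 UMIs is below that of n03 (1416 UMIs), and at 500 UMIs Tubb3 was found in 17.9% of n03 cells and in 6.52% of n06 and 6.49% of n07 cells. In n14-GC-7, an axis A cluster with a median depth of 690 UMIs, Tubb3 was found in 8.84% of cells and was at 173 ± 29.1 CPM, nearer to n06 and n07. In n09-GC-3 of axis B, Tubb3 was found in 12.1% of cells and Dcx in 5.86%.

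Other measures also differed between clusters of the axes. The median mitochondrial share of UMIs was 15.2% in n06 and 17.4% in n07, against 8.44% in n04, 7.71% in n03 and 7.37% in n11, and it was 29.7% in n14. With mitochondrial genes left out of the totals, the log2 ratio to n04 was −1.89 for Dcx and −2.14 for Tubb3 on axis A, and −1.29 and −3.41 on axis B. The summed level of 4 sensory neuron markers was 972 to 1973 CPM in n06 and 597 to 1062 CPM in n07, against 281 to 628 CPM in n04. That of 3 ensheathing cell markers was 809 to 1081 CPM in n06 and 791 to 1517 CPM in n07, against 238 to 436 CPM in n04 and 276 to 472 CPM in n03. Some other axis A clusters reached such levels, with ensheathing markers at 965 to 2376 CPM in n14, 386 to 1486 in n12 and 307 to 1230 in n05. Sensory neuron markers were at 677 to 1472 CPM in n14 and, on axis B, at 245 to 707 CPM in n09. Ensheathing markers were at 196 to 329 CPM in n02 and 345 to 543 CPM in n11, axis A clusters of 1037 and 1669 cells. The axis A clusters n14, n12 and n05 hold 679, 237 and 377 cells. In n09, with 273 cells, ensheathing markers were at 383 to 1105 CPM. The sums thus differed between clusters within each axis, and they were high in n06 and n07, which dominate axis B. The part of depth and of RNA from other cells in the difference between the axes was not tested.

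**Figure D3:**
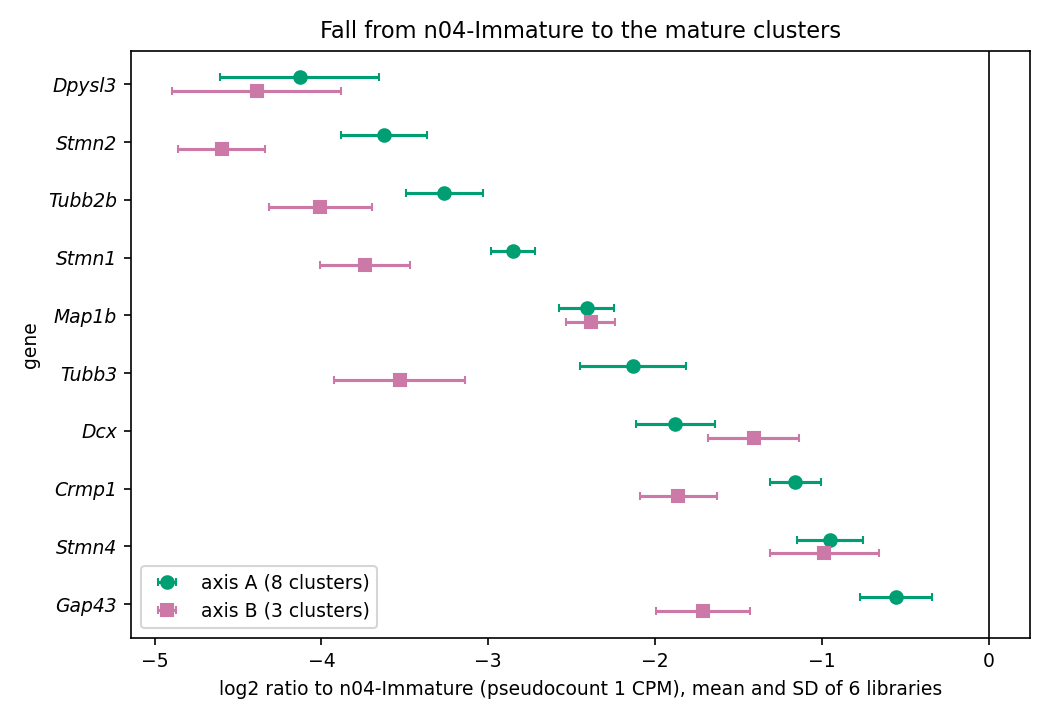
Log2 ratio of axis A (circles) and axis B (squares) to n04-Immature for each gene, with 1 CPM added, as mean and SD of 6 libraries; the vertical line at 0 is the n04 level. All points lie left of the line, Dcx lies further right on axis B than on axis A, and Tubb3 and Gap43 lie further left on axis B.

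The single clusters of an axis did not all follow its order. On axis B, Dcx was at 49.2 ± 8.30% of n04 in n06 and 36.1 ± 9.19% in n07 but at 14.7 ± 5.45% in n09-GC-3, while Map1b went from 16.4 ± 2.16% in n06 to 61.1 ± 3.80% in n09 and Crmp1 from 28.2 ± 7.44% to 62.3 ± 7.32%. On axis A, the lowest Dcx shares were 11.3 ± 4.07% in n08-PGC-3 and 11.4 ± 5.98% in n14-GC-7, and the highest was 41.5 ± 7.37% in n05-PGC-2. Stmn4 in n08-PGC-3 was at 118 ± 18.2% of n04 and was lower than n04 in 1 of 6 libraries.

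A list of 35 further cytoskeleton genes showed which of their relatives fell with them. On axis A, 18 of the 35 were lower and 11 higher than n04 in 6 of 6 libraries, and on axis B 20 were lower and 7 higher, with a median log2 ratio of −0.32 and −0.83. The list was thus lower for 51.4% and 57.1% of its genes and higher for 31.4% and 20.0%. Of the 7021 genes, 22.7% and 30.1% were lower and 42.6% and 43.0% higher. The largest falls to axis A were those of Tmsb10, a thymosin that binds actin monomers, at −4.04 ± 0.18, of the β-tubulin Tubb5 at −2.62 ± 0.21 and of Dpysl5 at −2.37 ± 0.24. The largest rises were those of Nefl, a neurofilament subunit, at 2.47 ± 0.77, of the microtubule-associated Map6 at 1.77 ± 0.36 and of the α-tubulin Tuba4a at 1.54 ± 0.33. The list was compiled with earlier results of these data known. Between the axes, 19 of the 35 (54.3%) were lower and 3 (8.57%) higher on axis B than on axis A in 6 of 6 libraries. Of the 7021 genes, 34.5% were lower and 32.1% higher. The 3 higher genes were Dclk1 and Dclk2, which share the doublecortin domain with Dcx, by 0.80 ± 0.12 and 0.64 ± 0.25 on the log2 scale, and Map2, a dendritic microtubule-associated protein without it, by 0.47 ± 0.06 (named after their values were seen). None of the 3 was lower than n04 on axis B on average, with log2 ratios of 0.99 ± 0.29, 0.25 ± 0.20 and 0.11 ± 0.14, whereas Dcx was.

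Among the 7021 genes, the non-members whose mean levels (log2 of CPM plus 1) over the 18 neuronal clusters were most like those of Dcx were Arid2 (Pearson r = 0.86), Lima1 (r = 0.86) and Yes1 (r = 0.85), with values over the 18 clusters as the points. The nearest non-member was Tubb5 for Tubb3 (r = 0.91), Nrep for Tubb2b (r = 0.89), Raly for Stmn1 (r = 0.86) and Slc29a4 for Stmn2 (r = 0.80). It was Alg11 for Stmn4 (r = 0.90), Gm9844 for Dpysl3 (r = 0.89), Nmnat2 for Map1b (r = 0.83), Parp6 for Crmp1 (r = 0.94) and Gng2 for Gap43 (r = 0.71). Within the 10 genes, the most alike of Dcx was Crmp1 at r = 0.52, while Tubb3 and Tubb2b had r = 0.78 and Dpysl3 and Map1b r = 0.83. The 18 points share libraries and depth, and these coefficients are descriptions.

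Outside the neurons, several of the 10 genes were high in glia of the oligodendrocyte line. Stmn4 reached 2147 and 2168 CPM in the myelinating oligodendrocytes (MyOligo) of the control libraries, 2189 and 2259 CPM in the occluded and 1733 and 1979 CPM in the trained libraries. All 6 values were above every n04 value, and MyOligo had the highest mean of the 38 clusters of the whole bulb. Stmn1 was at 1938 ± 71.8 CPM in MyOligo and 965 ± 50.5 CPM in OEC4. Dcx was at 78.2 ± 31.9 CPM in oligodendrocyte precursors (OPC), its highest level in a nonneuronal cluster. At 500 UMIs a Dcx UMI was found in 3.27% of OPC cells, between 0 and 8% over the libraries. The share was 2.58% in n01-OSNs, 1.63% in MyOligo and 0.524% in OEC4. Before thinning it was 17.6% in OPC, 4.25% in n01-OSNs, 6.88% in MyOligo and 2.82% in OEC4.

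Precursors held Tubb2b at 501 ± 68.4 CPM, the highest level of that gene in a nonneuronal cluster, and Gap43 at 168 ± 49.3 CPM, near its level of 159 ± 21.4 CPM in n04. At 500 UMIs, a Stmn4 UMI was found in 67.8% of MyOligo cells, 11.6% of OPC, 1.60% of OEC4 and 23.7% of n04 cells. A Tubb2b UMI was found in 20.4% of OPC and 1.98% of MyOligo cells.

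**Figure D4:**
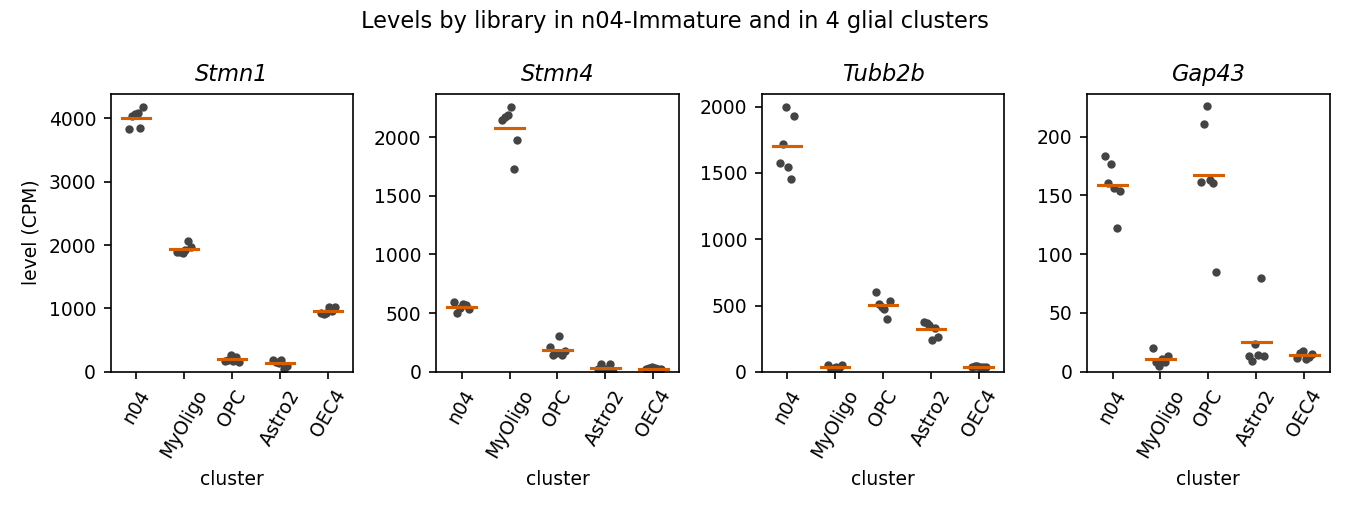
Level in CPM of Stmn1, Stmn4, Tubb2b and Gap43 in n04-Immature and in the MyOligo, OPC, Astro2 and OEC4 clusters, with a point for each of 6 libraries and a line at the mean. Stmn4 in MyOligo (mean 2079 CPM) lies above n04 in every library, and Gap43 in OPC lies at the level of n04.

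Whether odor deprivation or training changed the 10 genes was asked within each of the 12 adult-born clusters, with the UMIs of a library added up and tested by the quasi-likelihood method of edgeR, adjusted after Benjamini-Hochberg over all genes tested in that cluster. The filter on low counts left 105 of 120 gene-by-cluster tests in each contrast. None of the 105 passed an adjusted p of 0.05, with 0 called after occlusion and 0 after training, where 0.0593% and 0.0489% of all 57303 tests were called. At an unadjusted p under 0.05 there were 14 tests in each contrast, 13.3% of the tests of the 10 genes against 4.76% of all tests after occlusion and 5.48% after training. Of these 14, 11 were higher and 3 lower after occlusion, and 1 was higher and 13 lower after training. The 10 genes were chosen with earlier results of these data known, so these shares are a description and not a test of the set. Other markers also differed between conditions, and they are counted here over all 12 clusters, not only those that held these tests. In n02, n05, n11 and n12, which held higher tests after occlusion, the immature neuron markers of occluded and control libraries overlapped. The median mitochondrial share of cells was 11.6% in both control libraries, 9.66 and 9.25% in occluded and 14.4 and 10.5% in trained libraries. The summed level of 5 mature neuron markers was lower in occluded than in control libraries without overlap in 9 of the 12 clusters, and that of 5 immature neuron markers, none of them among the 10 genes, was higher in 7. Ensheathing and mural cell markers were higher in 5 clusters each and oligodendrocyte precursor markers in 4. Red blood cell, endothelial and microglia markers were higher in 3 each, and mitral and tufted cell markers were lower in 5. The precursor list was near the floor, as in n02 with 0 CPM in control and 4.43 to 12.2 CPM in occluded libraries. For scale, 18.8% of all genes in n04 were higher and 13.8% lower without overlap after occlusion, and 17.8% and 16.3% after training. This share was not formed in the other clusters. In n11-GC-5, which held 3 of the 11 higher tests, 2 red blood cell genes summed to 1756 to 2316 CPM in occluded, 53.9 to 123 CPM in control and 40.2 to 50.4 CPM in trained libraries. After training, the immature neuron markers were higher in 0 and lower in 2 of the 12 clusters and the mature neuron markers higher in 4 and lower in 3. Red blood cell genes were lower in 7 clusters, mitral and tufted cell markers in 5 and endothelial and mural cell markers in 4 each. The part of these in the differences was not tested. Over all genes, 1336 tests were higher and 1394 lower after occlusion, and 1686 higher and 1457 lower after training. The clusters share their libraries and both contrasts share the control libraries, so these tests are not independent of each other. The sums do not separate fewer cells carrying a transcript from less transcript per cell, and the shares of cells were not tested between conditions.

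In n04-Immature all 10 genes were tested. Their log2 differences from control lay between −0.08 (Gap43) and 0.09 (Dpysl3) after occlusion and between −0.32 (Gap43) and 0.11 (Dcx) after training, with standard errors from 0.0979 to 0.147, and the smallest adjusted p was 1.00 and 0.939 in edgeR's test. No member was called by DESeq2 there either. Over all genes, 0.107% were called after occlusion and 0.0% after training, with 410 and 489 of 9312 at an unadjusted p under 0.05. The 10 and 0 calls became 3 to 7 and 0 to 17 on leaving out a library (3 without naris-occluded replicate 2, 6 without control replicate 1, 16 and 17 without trained replicate 1 and 2) and 17 and 2 with the replicate number as a block. The median log2 difference of the 10 genes was 0.03 and 0.05, and that of all genes tested was 0.00 in both contrasts. N3 cells made up 12.3 and 13.3% of n04 in control, 10.5 and 7.24% in occluded and 15.1 and 12.5% in trained libraries. The median mitochondrial share of n04 cells was 9.25 and 8.90%, 7.23 and 7.89%, and 9.91 and 7.53% in the same order. The part of both in the differences was not tested.

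The libraries of occluded and control mice did not overlap for 1 of the 10 genes in n04, Stmn1, which was higher, where 18.8% of all genes were higher without overlap. After training Dcx and Crmp1 were higher and Gap43 lower without overlap, where 17.8% and 16.3% of all genes were higher and lower. Tubb3 was at 1587 and 1880 CPM in control, 1938 and 1705 CPM in occluded and 1616 and 1938 CPM in trained libraries. Its 3 high libraries were control replicate 2, naris-occluded replicate 1 and trained replicate 2, and the same 3 libraries were highest in Tubb2b, Dpysl3, Map1b and Stmn2. These 3 also had the highest median depth of n04 cells, 1787 to 2080 UMIs against 1476 to 1639 in the others, and the part of depth in the levels was not tested.

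**Figure D5:**
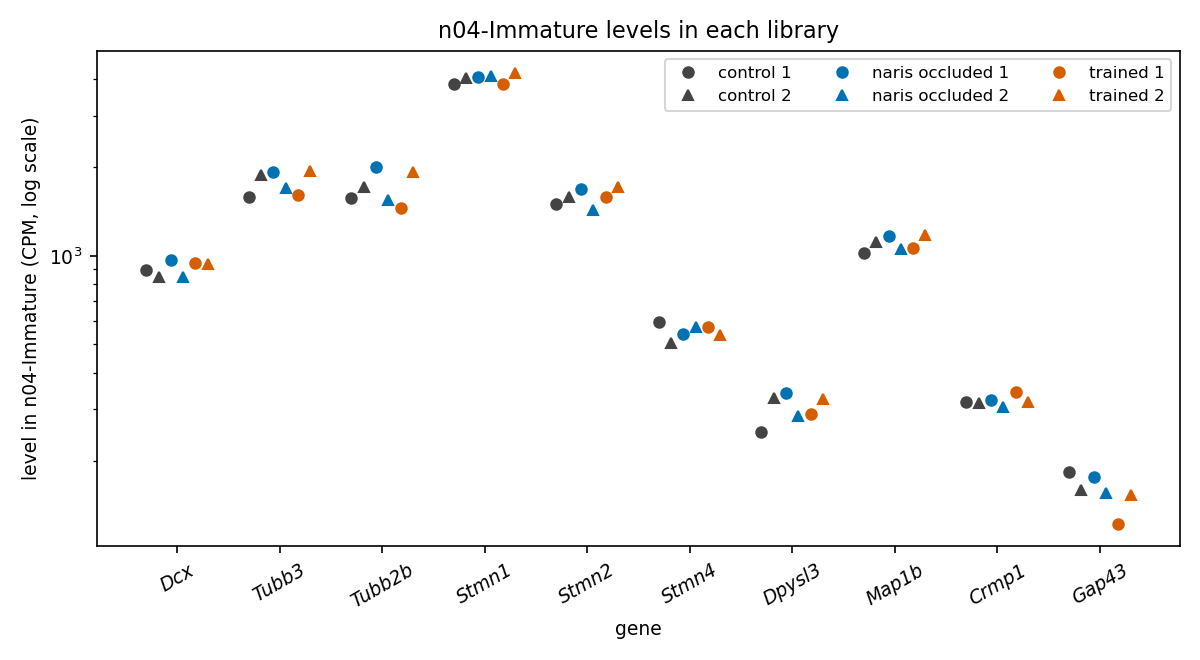
Level of each gene in n04-Immature cells (CPM, log scale) in each library of control (grey), naris-occluded (blue) and trained (orange) mice, with circles for replicate 1 and triangles for replicate 2. The log2 difference from control farthest from 0 is −0.32, for Gap43 after training, and for Tubb3 the high libraries are control 2, occluded 1 and trained 2.

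Outside n04, the smallest adjusted p was that of Stmn2 in n10-GC-4 after occlusion, 0.183. Stmn2 there was at 314 and 320 CPM in control, 45.1 and 95.8 CPM in occluded and 195 and 53.6 CPM in trained libraries. The control libraries were higher than the 4 others, with a log2 difference of −2.04 ± 0.45 (SE) after occlusion, on 86 UMIs in all and as few as 26 cells in a library. The difference lay between −2.71 and −1.73 on leaving out a library. The control libraries were themselves far apart in the immature sensory neuron markers, at 69.5 and 501 CPM. Of 14 marker lists, 4 were higher in all 4 manipulated libraries than in control there and 0 were lower. The 4 were those of ensheathing cells, astrocytes, microglia and mitral and tufted cells. The last 2 were near the floor in control. Microglia markers were at 25.5 to 27.8 CPM in control. Mitral and tufted cell markers were at 0 to 25.5 CPM in control and at most 43.6 CPM in manipulated libraries. The share of all genes with such a pattern was not formed in n10-GC-4. Ensheathing cell markers summed to 161 to 209 CPM in control, 479 to 496 CPM in occluded and 391 to 464 CPM in trained libraries. The 5 immature neuron markers summed to 723 to 773 CPM in control and to 871 to 901 CPM in occluded libraries, higher without overlap while Stmn2 was lower. In trained libraries they overlapped control, at 739 to 982 CPM. The part of these in the difference of Stmn2 was not tested. With no filter on low counts, or without control replicate 2, naris-occluded replicate 1 or naris-occluded replicate 2, this gene passed, with adjusted p from 0.0173 to 0.0484 in edgeR's test. Each fit without a library leaves 1 library in a group, which is then assumed to vary like the other groups.

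Dcx in n12-GC-6 was at 166 and 144 CPM in control, 318 and 250 CPM in occluded and 242 and 257 CPM in trained libraries. Both manipulated groups were above control, with log2 differences of 0.82 ± 0.27 and 0.63 ± 0.28 (SE) and edgeR adjusted p of 0.555 and 0.745. In the same cells, the 5 immature neuron markers summed to 447 to 454 CPM in control, 423 to 542 CPM in occluded and 309 to 334 CPM in trained libraries. The 5 mature neuron markers were at 7864 to 7915, 6927 to 7728 and 7707 to 7847 CPM, lower than control without overlap in both, and their part was not tested. Tubb3 in n03-GC-1 was at 473 and 382 CPM in control, 524 and 522 CPM in occluded and 272 and 351 CPM in trained libraries. It was lower after training by a log2 difference of −0.52 ± 0.17 (SE), with an edgeR adjusted p of 0.761. In the same trained cells, mature neuron markers (1920 to 1933 against 1803 to 1890 CPM in control), astrocyte markers (614 to 668 against 517 to 542 CPM) and myelinating oligodendrocyte markers (229 to 258 against 157 to 186 CPM) were higher without overlap, and their part was not tested.

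Of the 35 further cytoskeleton genes, between 16 and 31 passed the filter in a cluster, 311 of 420 possible tests in each contrast, and edgeR called 0 of them, where 0.0593% of all tests were called after occlusion and 0.0489% after training. At an unadjusted p under 0.05 there were 18 after occlusion (5.79%) and 13 after training (4.18%), and in n04 DESeq2 called 0 of the 35.

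Cells of a mature cluster with a Dcx UMI were set beside cells without one, at 500 UMIs each, to see which other genes went with Dcx. The counts were summed per library and tested with edgeR with the library as a term and Dcx left out. Thinning moved many cells between the groups, since 481 cells of n03 and 881 of n07 had a Dcx UMI at full depth and 186 and 512 at 500 UMIs. The cells without one at 500 UMIs thus include cells that held Dcx transcripts, and a Dcx UMI was also found in 2.58% of n01-OSNs cells, so a count of 0 does not show that no gene went with Dcx. In n03-GC-1, where 186 of 1914 cells had a Dcx UMI, 0 of 738 genes were called (0.0%) and 41 had an unadjusted p under 0.05. In n07-GC-2, with 512 of 3608 cells, 0 of 1554 genes were called (0.0%) and 83 had an unadjusted p under 0.05. Only 3 and 4 of the other 9 members passed the filter on low counts there, and the farthest from 0 was Stmn4 in n03, with a log2 difference of −1.24 ± 0.42 (SE) and an adjusted p of 0.492 in edgeR's test. Without thinning it was 0.02, and with no filter on low counts it was −2.02 and passed. Stmn1 had log2 differences of 0.36 ± 0.20 and 0.20 ± 0.20 (SE) in n03 and n07, which changed sign with no filter (−0.45 and −0.13). Without thinning, 18 and 10 genes were called in n03 and n07.

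The same test in n04, n06 and n11 was added after seeing the data. In n04, where all 9 other members were tested, 0 of them were called and 17 of 2440 genes were (0.697%), 2 higher and 15 lower in the cells with a Dcx UMI. The higher genes were Sgip1 and Pcdh9, and the lower ones were led by mitochondrially encoded genes, mt-Atp6, mt-Cytb and mt-Nd1. The thinned UMIs include mitochondrial ones, so a cell with a larger mitochondrial share had fewer others among which Dcx could be found. Grouping by a Dcx UMI thus favours cells with a low mitochondrial share, so the lower mitochondrial genes do not show what went with Dcx. The part of this selection in the calls was not tested. The log2 differences of the members in n04 lay between −0.20 ± 0.18 for Gap43 and 0.22 ± 0.12 (SE) for Crmp1. In n06 and n11, 0 genes were called by edgeR (0.0% of 802 and of 923), with 76 and 39 at an unadjusted p under 0.05.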

How the data were processed

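UMI counts of 6 olfactory bulb libraries (10x Genomics 3′ v2) were deposited by the authors as raw counts per gene and barcode, without normalization, in 1 table made with Cell Ranger 2.0.0 on mm10, per the labels' processing notes. The authors also deposited annotations with the library, the clusters (Seurat 2.2.1) and the mitochondrial fraction of each cell, and stated that doublets were removed. The library column was used, since the starts of the names of trained cells are reversed against it.

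Counts were summed by cluster and library and scaled to CPM; the deposited counts are not CPM. Counts at the 3′ end of a transcript are not scaled by its length. Tubulin genes are close copies in their coding parts, so reads shared among them are uncertain. Differences between conditions used edgeR 4.0.16 (quasi-likelihood, TMM, filterByExpr, adjusted p under 0.05) in R 4.3.3 on all 6 libraries, in clusters with at least 10 cells per library, and DESeq2 1.42.0 as an alternative. On simulated counts of n04, in 9312 genes, the edgeR test called 41.5% of 200 genes changed by 1 on the log2 scale in the trained libraries. The 200 genes were drawn at random from all levels of expression. The share thus describes neither the 10 members in n04 nor tests in smaller clusters. Cells were thinned once to 500 UMIs (seed 1).

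Animals were pooled for a library, so p-values measure the spread between pools. No source used here says that replicate numbers mark shared mice. Named genes were the 10 members, the 3 largest falls and rises to axis A of the list of 35 genes and the nearest non-members by correlation, and genes named outside this rule (Dclk1, Dclk2, Map2 and those led by Sgip1 in the comparison by Dcx UMI) were chosen after their values were seen. The members, lists and tests were chosen with earlier results of these data known. The alternatives were other normalizations, filters, depths, weights, pseudocounts, left-out libraries and a replicate block.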

Additional observations from a re-analysis of the deposited data

How the results depend on the processing

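The counts of members highest in n04 (7 to 8 leaving out each library in turn) and lower than n04 on each axis (10, but 9 on axis A with each cluster given equal weight) stayed within 1.5 times under every alternative run, and none of the 240 recomputed axis ratios changed sign. With each cluster given equal weight the ratio of Map1b to n04 was −2.14 on axis A and −1.69 on axis B, with 7 of the 11 ratios that moved by more than the spread between libraries under this setting. With a replicate block, the number of the labels as a term, 17 genes of n04 were called after occlusion and 2 after training, and 0 of the 10 members in any cluster. Deviations of same-numbered libraries in n04 correlated at 0.137 to 0.187, and other clusters were not checked. With no filter beyond 1 count, 36 and 6 genes were called in n04, and 1 member test passed over the 12 clusters, Stmn2 in n10-GC-4 after occlusion. With DESeq2, 4 genes were called after occlusion, and in cells with at least 1000 UMIs 1 gene was called after training. Leaving out each library in turn gave 3 to 7 genes after occlusion and 0 to 17 after training in n04. The 17 came without trained replicate 2 and 16 without trained replicate 1. Member tests then passed 0 to 2 times after occlusion and 0 to 1 times after training. Besides Stmn2 in n10-GC-4, these were Stmn2 in n05-PGC-2 without naris-occluded replicate 1 (log2 difference 1.54) and Stmn4 in n09-GC-3 without trained replicate 2 (−2.29). Both rest on 1 library left in the group, which is assumed to vary like the other groups.

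The log2 differences of members in n04 changed sign in 32 of 180 recomputed values, 28 of them on leaving out a library, with no absolute value above 0.176 among these, and none passed the threshold. After occlusion that of Dpysl3 ranged from −0.11 to 0.30 and that of Gap43 from −0.16 to 0.020 on leaving out each library. Of the comparisons by Dcx UMI, counts without thinning called 18 genes in n03 and 10 in n07, and no filter beyond 1 count called 277 and 133. Stmn4 in n03 was then at 0.019 without thinning and at −2.02 and past the threshold with no filter, and Stmn1 was at −0.45 in n03 and −0.13 in n07 with no filter and at −0.091 in n07 without the control libraries. The causes of these changes were not tested. Small clusters limit the depth behind the values, so differences in clusters of under 300 cells rest on few UMIs.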
